A study of Homo sapiens with 12 samples.

Results

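MIR elements (mammalian-wide interspersed repeats) are short interspersed elements (SINEs) of the human genome, and their RNA was counted after PAR-CLIP of V5-tagged ZC3H18 (Z18). The members are the annotated elements of the family MIR and class SINE that carried reads on their own strand in any library, 143159 of 1509971 elements of 6 repeat classes. PAR-CLIP labels RNA with a photoactivatable nucleoside, here 4-thiouridine (4sU), crosslinks it to protein with light and pulls the protein down with its RNA. A375 human melanoma cells, an established line, were transiently transfected with pcDNA3.2 plasmids for V5-tagged Clover (a fluorescent protein, the control), full-length ZC3H18 (Z18fl), truncated ZC3H18 (Z18trunc) or a truncated ZC3H18 whose zinc finger has aromatic residues mutated (Z18truncZnFmut). There were 3 libraries per construct, 12 in all. All cells had 4sU from 24 h after transfection, 316 nm UV and anti-V5 immunoprecipitation. The study expressed each construct with 3 replicates and describes the immunoprecipitation as done in triplicate, without stating whether each library had its own transfection. The p-values measure the spread between these libraries, part of which may be technical. The tagged proteins came from plasmids, the methods describe no removal of the cells' own ZC3H18, and protein was not selected by size.

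MIR elements arose from tRNA-derived retrotransposons that were active early in mammalian evolution and no longer move. They are now diverged fragments scattered through introns, untranslated regions and the space between genes, and most of their RNA is part of longer transcripts of the host gene. ZC3H18 is a nuclear protein that links capped RNA to the RNA exosome, the complex that degrades RNA from its 3′ end, and its zinc finger belongs to a class that can bind RNA.

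The Clover libraries held 16683132 to 17673644 aligned fragments each, and the 9 Z18 libraries 21285347 to 25686948. The library Z18truncZnFmut replicate 3 stood apart. It listed 71612 MIR loci against 12929 to 33065 in the other 11 libraries, and 92.6% of its listed loci held 3 or fewer counts, against 78.3% to 86.2% elsewhere. MIR loci antisense to genes held 19.3% of its MIR counts and those between genes 21.4%, against 8.08% to 10.7% and 8.24% to 11.7% elsewhere. The main levels, shares and call counts of Z18truncZnFmut are also given without it. No other RNA type checks the identity of the cells here, because the files count repeats. More bound RNA per cell and more cells with bound RNA cannot be told apart in bulk samples, and input RNA was not analysed here.

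The sequences of 4 MIR elements show what such diverged copies look like and which transcripts they lie in. They were chosen by rank: the most read element, the leading rise and the leading fall in Z18fl and the leading rise in Z18trunc, passing over elements that overlap untranslated regions. Each is given 5′ to 3′ on the strand of the element in hg38. Capitals mark any of the 10 most frequent runs of 8 bases over all MIR elements. The elements are MIRb in the coding sequence of SRRM2 (chr16:2757799-2757883, + strand), MIR3 in an intron of GOLGA2P11 (chr15:62261714-62261864, - strand), MIR in an intron of SIN3B (chr19:16856240-16856479, + strand) and MIRb in a non-coding exon of PLEKHG5 (chr1:6471128-6471358, - strand).
MIRb in SRRM2: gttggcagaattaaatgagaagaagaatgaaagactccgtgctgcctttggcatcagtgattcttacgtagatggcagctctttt
MIR3 in GOLGA2P11: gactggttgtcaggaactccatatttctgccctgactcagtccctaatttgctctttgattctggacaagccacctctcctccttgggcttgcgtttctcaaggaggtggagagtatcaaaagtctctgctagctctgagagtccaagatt
MIR in SIN3B: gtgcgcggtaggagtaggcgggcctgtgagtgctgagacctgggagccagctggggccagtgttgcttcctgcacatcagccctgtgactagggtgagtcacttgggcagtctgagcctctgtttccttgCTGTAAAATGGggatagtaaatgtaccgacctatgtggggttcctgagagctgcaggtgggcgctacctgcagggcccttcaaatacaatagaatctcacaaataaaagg
MIRb in PLEKHG5: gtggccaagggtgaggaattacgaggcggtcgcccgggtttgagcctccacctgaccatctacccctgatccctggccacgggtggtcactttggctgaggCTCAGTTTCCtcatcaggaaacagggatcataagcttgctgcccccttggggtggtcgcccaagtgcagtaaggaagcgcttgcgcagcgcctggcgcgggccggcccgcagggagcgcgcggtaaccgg

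The SIN3B and PLEKHG5 copies held different runs, and the SRRM2 and GOLGA2P11 copies held none of the 10 runs. The most frequent run, CTCAGTTT, lay on the element's strand in 12.3% of MIR elements and its reverse complement in 0.541%. It lay in 1.83% of L2 elements and 0.0546% of Alu elements on their strand, and in 0.850% of stretches of the same length 1000 bases upstream of each MIR element. TCAGTTTC, CCTCAGTT, GCCTCAGT and CAGTTTCC overlap it. TGTAAAAT, which does not, lay in 10.5% of MIR elements, in 0.957% of L2 elements and in 0.917% of the upstream stretches. It was more frequent in MIR (13.4%) and MIRb (10.4%) than in MIR3 (7.12%) and MIR1_Amn (6.28%). These are descriptions of letters, not of protein sites.

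The family had 5 subfamilies with reads: MIRb with 56038 elements, MIR with 43439, MIRc with 22493, MIR3 with 18704 and MIR1_Amn with 2485. The subfamily named MIR shares its name with the family and is called the MIR subfamily below. The median MIR element was 162 bases long and differed from its consensus by 28.9%, against 296 bases and 11.5% for Alu, the younger main SINE family, and 248 bases and 31.2% for L2, an old family of long interspersed elements (LINEs). By the GENCODE annotation 49.4% of the elements lay in introns of genes on their strand and 4.11% in exons. MIR1_Amn and MIR3 lay in exons most often, with 7.65% and 5.65% of their elements, against 3.39% for the MIR subfamily.

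The reads were not confined to the elements. At MIR loci with at least 10 counts, the stretch covered by reads passed both ends of the element in 91.6% to 97.5% of loci per library, and its median was 284 to 307.5 bases. Between 529 and 1280 MIR loci per library held at least 10 counts. Counts on the element's strand made up 53.6% ± 0.619 (SD, n = 3) of MIR counts on both strands in Clover, and 52.4% ± 0.295, 53.1% ± 0.232 and 52.4% ± 0.809 in Z18fl, Z18trunc and Z18truncZnFmut. Reads thus fell on both strands of the elements in nearly equal parts.

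The first comparison asks whether Z18 pulled down more RNA with MIR elements than the control. MIR levels as counts-per-million of aligned fragments (CPM) were 3076, 2865 and 2718 in Clover replicates 1 to 3, and 3710, 3609 and 3590 in Z18fl. They were 3265, 3402 and 3816 in Z18trunc, and 3179, 3265 and 5713 in Z18truncZnFmut. Every library of each Z18 construct lay above every Clover library. The Clover mean was 2886 ± 180.2 CPM (SD, n = 3), and those of Z18fl, Z18trunc and Z18truncZnFmut were 3636 ± 64.8, 3494 ± 287 and 4052 ± 1439. The exact permutation p was 0.1 for each construct against Clover, the smallest that 3 against 3 can give, and 0.217 after Benjamini-Hochberg adjustment over 50 tests. Leaving out Z18truncZnFmut replicate 3 brought its group's excess over Clover from 1166 down to 335.8 CPM. Z18trunc and Z18fl overlapped (exact permutation p = 0.5), as did Z18truncZnFmut and Z18trunc (exact permutation p = 0.9).

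Introns held the largest part of the higher level. MIR elements in introns of their own strand had 1288, 1149 and 1087 CPM in Clover and 1980, 1894 and 1923 in Z18fl. They had 1587, 1691 and 1863 CPM in Z18trunc and 1462, 1617 and 2395 in Z18truncZnFmut. The groups did not overlap with Clover, and the means were 1.64, 1.46 and 1.55 times that of Clover in Z18fl, Z18trunc and Z18truncZnFmut (1.31 in the last without replicate 3). Elements antisense to genes and between genes were also above Clover without overlap in Z18fl, at 1.17 and 1.22 times its mean. In Z18trunc and Z18truncZnFmut they overlapped Clover, and without replicate 3 of the mutant its means were 1.13 and 1.15 times that of Clover in place of 2.19 and 2.35. MIR elements in exons went the other way. They had 1214, 1199 and 1183 CPM in Clover and 1110.0, 1096 and 1065 in Z18fl, then 1113, 1128 and 1099 for Z18trunc and 1157, 1039 and 992 for Z18truncZnFmut. The exon means were 0.910, 0.929 and 0.887 times that of Clover (0.916 in the last without replicate 3), again without overlap.

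**Figure D1:**
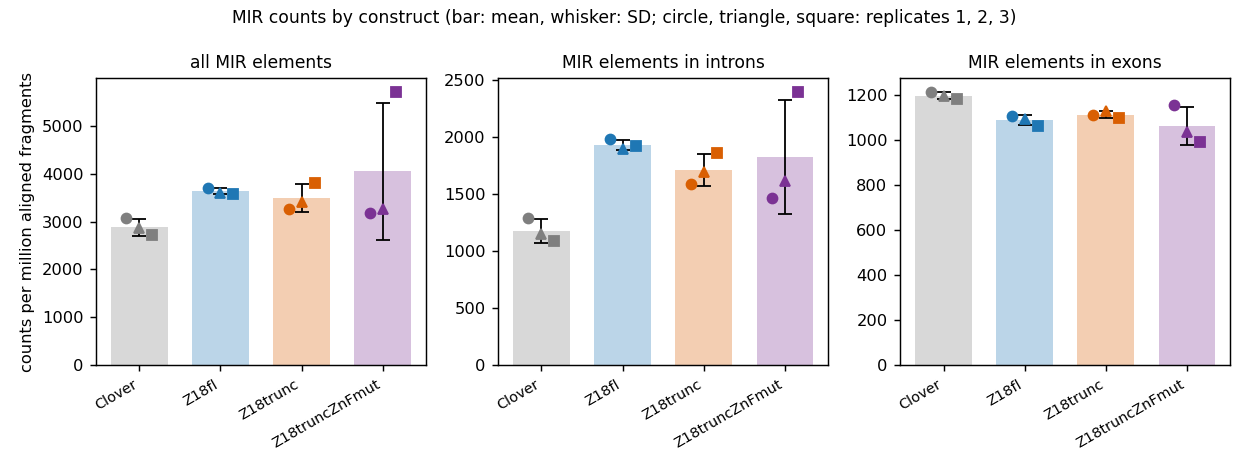
MIR levels in CPM (y axis) for each construct, over all MIR elements, those in introns and those in exons of genes on their strand. Bars are means, whiskers SD and symbols the 3 replicates. Intron levels of all Z18 libraries lie above Clover (means 1932, 1714 and 1825 against 1175 CPM) and exon levels below it, and the square far above its group is Z18truncZnFmut replicate 3.

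As shares, introns held 40.7% ± 1.06 (SD, n = 3) of MIR counts in Clover, and 53.1% ± 0.588, 49.0% ± 0.588 and 45.8% ± 3.81 in Z18fl, Z18trunc and Z18truncZnFmut. Exons held, in the same order, 41.6% ± 2.04, 29.98% ± 0.343, 32.0% ± 2.81 and 28.5% ± 9.94. Each construct was free of overlap with Clover in both shares (exact permutation p = 0.1 for each, adjusted p = 0.217). Without Z18truncZnFmut replicate 3 the intron difference of that group rose from 5.15 to 7.09 percentage points and the exon difference went from -13.1 to -7.50. The intron share of Z18trunc also lay below that of Z18fl in every library, by 4.08 points on average (exact permutation p = 0.1).

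Exonic MIR elements differed by the kind of exon. The 2083 elements in 3′UTRs, the untranslated ends of mRNAs, had 902, 875 and 878 CPM in Clover and 625, 631 and 618 in Z18fl. They had 728, 736 and 678 CPM in Z18trunc and 784, 680 and 640 in Z18truncZnFmut. All Z18 libraries were below all Clover libraries, and the means were 0.705, 0.807 and 0.792 times that of Clover (0.827 in Z18truncZnFmut without replicate 3). The 80 elements in coding sequence had means of 0.825, 0.844 and 0.815 times that of Clover, without overlap.

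The 3328 elements in non-coding exons, which are exons of transcripts without a coding sequence at that place, had higher levels. They had 178, 176 and 169 CPM in Clover and 335, 318 and 307 in Z18fl. They had 246, 259 and 271 CPM in Z18trunc and 234, 234 and 237 in Z18truncZnFmut. No Z18 library overlapped Clover, and the means were 1.83, 1.48 and 1.35 times that of Clover. Of these elements 1766 lay in protein-coding genes and 1447 in genes of long non-coding RNA. Their means were 2.03, 1.55 and 1.36 times that of Clover in the former and 1.57, 1.39 and 1.32 times in the latter. The 398 elements in 5′UTRs followed the same order of constructs, with means of 1.41, 1.28 and 1.07 times that of Clover, where Z18truncZnFmut overlapped the control. These levels by kind of exon were computed after the first results were seen and were given no test.

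**Figure D2:**
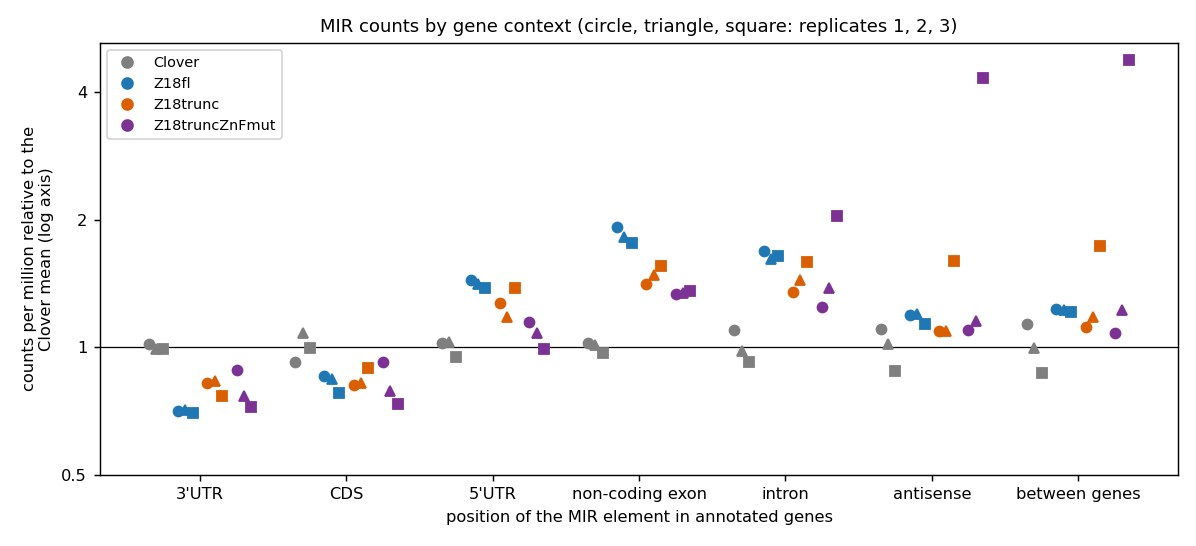
MIR levels in CPM divided by the Clover mean (log y axis) for each library, by the place of the element in annotated genes (x axis). Levels in 3′UTRs and coding sequence lie below 1 and those in non-coding exons and introns above 1 in all Z18 libraries, and Z18truncZnFmut replicate 3 lies far above the rest among elements antisense to or between genes (1104 and 1221 CPM, against Clover means of 255 and 257), with Z18trunc replicate 3 next (408 and 445 CPM).

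A small set of loci carried more of the MIR signal in the control than with Z18. The 10 MIR loci with the highest mean counts over all libraries were taken as a fixed set. They held 13.4%, 14.7% and 15.02% of MIR counts in Clover and 5.80%, 6.23% and 5.96% in Z18fl. The shares were 8.95%, 8.81% and 7.56% for Z18trunc and 10.9%, 9.31% and 4.58% for Z18truncZnFmut. All Z18 libraries lay below all Clover libraries. The MIR elements other than the 10 loci with the highest mean over all libraries had 2472 ± 179 CPM (SD, n = 3) in Clover and 1.38, 1.29 and 1.52 times that in Z18fl, Z18trunc and Z18truncZnFmut, without overlap (1.17 in the last without replicate 3).

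The 4 most read loci were in mRNA exons, and each of them fell in every Z18 construct against Clover. The MIR3 element in the 3′UTR of TGM2 (chr20:38129161-38129333, ENSG00000198959.12), which encodes the protein-crosslinking enzyme transglutaminase 2, had 1518, 1618 and 1446 counts in Clover and 1132, 1148 and 1285 in Z18fl, from deeper libraries. Its mean was 89.1 ± 6.59 CPM (SD, n = 3) in Clover, and 49.6 ± 0.660, 68.8 ± 2.44 and 58.1 ± 13.7 in Z18fl, Z18trunc and Z18truncZnFmut. The log2 fold changes against Clover were -1.21 ± 0.11 (SE), -0.72 ± 0.11 and -0.82 ± 0.16 in the same order (edgeR adjusted p = 1.1e-07, 2.6e-05 and 0.00071). None of the 3 groups overlapped Clover.

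The MIRc element in the 3′UTR of SLC7A5 (chr16:87831035-87831156, ENSG00000103257.9), a transporter of large neutral amino acids, had 87.9 ± 3.03 CPM in Clover and 38.0 ± 2.91 in Z18fl. It had 54.2 ± 6.61 CPM in Z18trunc and 71.9 ± 11.2 in Z18truncZnFmut. The log2 fold change was -1.57 ± 0.12 in Z18fl (edgeR adjusted p = 1.4e-08), -1.05 ± 0.10 in Z18trunc (edgeR adjusted p = 3.3e-07) and -0.50 ± 0.14 in Z18truncZnFmut (edgeR adjusted p = 0.013). The call in Z18truncZnFmut was lost under 3 of 13 alternatives, among them aligned fragments (-0.29, edgeR adjusted p = 0.22). The element was also higher in Z18truncZnFmut than in Z18trunc, by 0.58 ± 0.13 (edgeR adjusted p = 0.033), with 2010, 1292 and 1741 counts against 1308, 1460 and 1117. This last call was lost under 8 of 13 alternatives, among them aligned fragments (edgeR adjusted p = 0.23), leaving out Z18truncZnFmut replicate 3 (edgeR adjusted p = 0.054) and leaving out each Z18trunc library.

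The MIRb element in the coding sequence of SRRM2 (ENSG00000167978.19), a splicing scaffold, whose sequence is given above, had 62.6 ± 4.98 CPM in Clover and 43.1 ± 1.31, 48.8 ± 3.98 and 48.5 ± 6.29 in the 3 Z18 constructs. The MIR3 element in the 3′UTR of the receptor tyrosine kinase AXL (chr19:41260070-41260170, ENSG00000167601.12) had 50.4 ± 2.93 CPM in Clover and 24.1 ± 0.806, 32.6 ± 0.596 and 34.5 ± 5.01. At both loci the Z18fl level was lowest and no Z18 library overlapped Clover. The log2 fold changes in Z18fl, Z18trunc and Z18truncZnFmut were -0.90, -0.70 and -0.58 at SRRM2 and -1.43, -0.97 and -0.74 at AXL. The SRRM2 call in Z18truncZnFmut (edgeR adjusted p = 0.0055) was lost under 2 of 13 alternatives, among them aligned fragments (-0.37, edgeR adjusted p = 0.11). The TGM2 and SLC7A5 elements were higher in Z18trunc than in Z18fl, by 0.39 and 0.42 (edgeR adjusted p = 0.028 and 0.031), and each of these calls was lost under 7 of 13 alternatives.

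The MIR share of element counts asks whether the family rose more or less than other repeats. It was 7.34%, 7.42% and 7.13% in Clover and 7.17%, 7.31% and 6.52% in Z18fl. In the truncated forms it was 5.88%, 5.97% and 6.56% for Z18trunc and 5.97%, 6.34% and 6.34% for Z18truncZnFmut. Z18fl overlapped Clover (exact permutation p = 0.4). Z18trunc and Z18truncZnFmut lay below it in every library, by 1.16 and 1.08 percentage points (exact permutation p = 0.1 for each, adjusted p = 0.217).

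Against Alu and L2, the family was highest in Z18fl. The log2 ratio of MIR to Alu counts was -2.59 ± 0.020 (SD, n = 3) in Clover, against -2.43 ± 0.066, -2.62 ± 0.084 and -2.58 ± 0.29 in Z18fl, Z18trunc and Z18truncZnFmut. The Z18fl libraries lay above all Clover libraries, by 0.15, and above all Z18trunc libraries, by 0.19 (exact permutation p = 0.1 for both). The log2 ratio of MIR to L2 counts was 0.64 ± 0.056 in Clover, against 0.78 ± 0.045, 0.68 ± 0.034 and 0.48 ± 0.37 in the same order. Z18fl was again without overlap above Clover, by 0.14, and above Z18trunc, by 0.10. With reads on either strand the MIR to L2 difference between Z18fl and Clover was -0.0086. In Z18truncZnFmut replicate 3 the log2 ratio to L2 was 0.056 and that to Alu -2.24, and without it the differences of the group from Clover were 0.050 and -0.16 in place of -0.16 and 0.011, in the same order.

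Single MIR loci were tested by the quasi-likelihood test of edgeR on all repeat loci together, and a call is a Benjamini-Hochberg adjusted p under 0.05. Of the 143159 MIR loci, 1189 (0.831%) held enough counts to be tested in at least 1 of the 5 comparisons. Directions depend on the scaling. TMM, used here, sets the middle of all tested loci near 0 (median 0.0084 in Z18fl against Clover), whereas library sizes from aligned fragments place it at 0.48 in Z18fl, 0.39 in Z18trunc and 0.24 in Z18truncZnFmut. A fall under TMM is thus a fall relative to the other tested repeats. The 3 comparisons with Clover share the Clover libraries.

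In Z18fl against Clover, 119 of 688 MIR loci (17.3%) were called higher and 231 (33.6%) lower. Over all 12098 loci tested, 28.3% were higher and 24.6% lower. The shares of Alu loci were 15.8% and 34.3% and those of L2 loci 12.4% and 35.5%, so all 3 families had more loci lower than higher. The median log2 fold change of MIR loci was -0.36, against -0.42 for Alu and -0.52 for L2 loci. With aligned fragments the MIR median became 0.12, with 227 loci higher and 137 lower of 756. The median over all loci was then 0.48, with 4934 higher and 1699 lower of 12886. Under TMM, leaving out Clover replicate 1 or Clover replicate 2 gave 211 of 1287 and 204 of 1251 MIR loci called higher. More loci were tested in these fits, so the rise in number was not a rise in share. Leaving out Z18fl replicate 3 gave 147 of 642 lower. Shares over all repeats are not given for these fits. At 289 of the called MIR loci the 2 groups did not overlap. The share over all called repeat loci was not computed, so this count does not set MIR loci apart.

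Gene context separated these loci. Of 261 MIR loci in 3′UTRs, 14 were higher and 135 lower, with a median log2 fold change of -0.87 that stayed negative, at -0.46, with aligned fragments. Of 88 loci in non-coding exons 26 were higher and 9 lower (median 0.53, and 1.12 with aligned fragments). With aligned fragments 23 and 88 of 273 loci in 3′UTRs and 53 and 3 of 97 in non-coding exons were higher and lower. Of 213 MIR loci in introns 55 were higher and 52 lower, with a median of 0.13, and with aligned fragments 104 and 28 of 249, with a median of 0.74. Under TMM, introns over all repeat loci had 41.8% higher, 12.9% lower and a median of 0.64. With aligned fragments they had 3093 higher and 346 lower of 5829, with a median of 1.125. In exons as a whole under TMM, 12.4% of MIR loci were higher and 39.5% lower, against 11.5% and 42.4% over all repeat loci. With aligned fragments the excess of falls among exonic MIR loci was gone, at 97 higher and 98 lower of 423. All repeat loci in exons then had 697 higher and 915 lower of 3692. Shares over all repeats were not computed for 3′UTRs or non-coding exons, here or in the other comparisons, so these counts do not set MIR apart. Among exonic Alu loci under TMM, 9.76% were higher and 50.1% lower, with a median of -0.80. These shares are descriptions, and their differences were not tested.

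**Figure D3:**
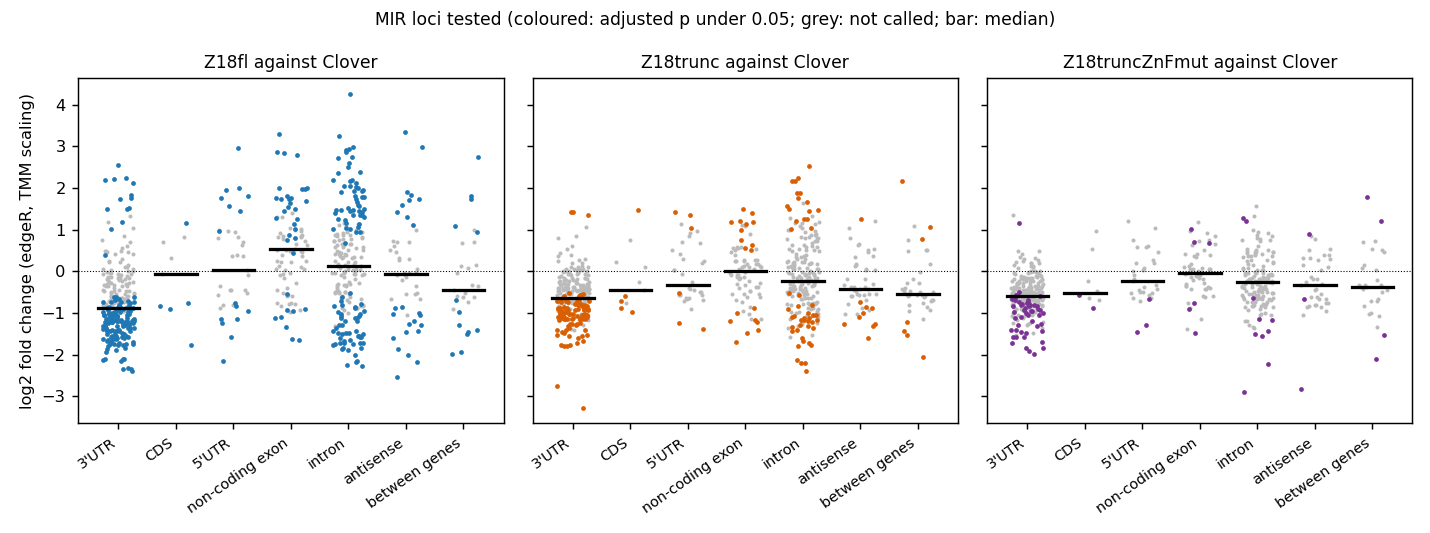
Log2 fold change against Clover (y axis, TMM scaling) of every MIR locus tested, by its place in annotated genes (x axis), for Z18fl, Z18trunc and Z18truncZnFmut. Coloured points were called by edgeR, grey points were not, and bars are medians. The 3′UTR medians are -0.87, -0.63 and -0.58, and calls become fewer from left to right.

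The named rises in Z18fl had few counts in the control. In this comparison they reached 10 counts only in Z18fl, and the rule that named them used the counts and score of the higher group. Their fold changes thus describe loci chosen for being high in Z18fl. The MIR3 element in an intron of GOLGA2P11 (ENSG00000260062.4), a pseudogene of the Golgi protein gene GOLGA2, had 3, 6 and 2 Clover counts against 36, 32 and 38 in Z18fl (log2 fold change 2.39 ± 0.44, SE, edgeR adjusted p = 0.00022). Reads of such a pseudogene may be shared with its copies, which makes the locus less certain. Its call held under 13 of 13 alternatives, among them uniquely mapping reads. The MIR element in the 3′UTR of PMM2 (chr16:8849986-8850137, ENSG00000140650.13), an enzyme of protein glycosylation, had 0, 5 and 4 Clover counts against 27, 21 and 24 in Z18fl (2.12 ± 0.57, edgeR adjusted p = 0.0045).

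Another was the MIR3 element in an intron of HGS (chr17:81695520-81695684, ENSG00000185359.14), a subunit of the endosomal sorting machinery. It had 8, 7 and 6 counts in Clover and 47, 48 and 59 in Z18fl, then 39, 14 and 30 for Z18trunc and 32, 26 and 22 for Z18truncZnFmut. Its log2 fold change was 2.01 ± 0.33 in Z18fl (edgeR adjusted p = 7.6e-05) and 1.28 ± 0.43 in Z18truncZnFmut (edgeR adjusted p = 0.043), a call lost under 9 of 10 alternatives. All Z18 libraries were above all Clover libraries, but in Z18trunc the change of 1.15 ± 0.46 was not called (edgeR adjusted p = 0.056). The GOLGA2P11 and PMM2 loci were too low for a test in the other comparisons with Clover.

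The named falls in Z18fl were in 1 intron and 2 3′UTRs. The MIR element in an intron of SIN3B (ENSG00000127511.10), a scaffold of histone deacetylase complexes, had 34, 22 and 20 counts in Clover and 16, 16 and 13 in Z18fl (a log2 change of -1.58 ± 0.35, SE, with an edgeR adjusted p = 0.00096). The MIR element in the 3′UTR of QSOX1 (chr1:180200105-180200287, ENSG00000116260.17), a sulfhydryl oxidase, had 31, 32 and 18 counts in Clover, 20, 17 and 12 in Z18fl and 17, 18 and 24 in Z18trunc. It fell by 1.55 ± 0.35 in Z18fl, by 1.28 ± 0.34 in Z18trunc and by 1.05 ± 0.36 in Z18truncZnFmut (edgeR adjusted p = 0.0014, 0.0055 and 0.046), and the call in Z18truncZnFmut was lost under 10 of 13 alternatives. The MIRc element in the 3′UTR of SLC1A4 (chr2:65022400-65022480, ENSG00000115902.11), a neutral amino acid transporter, had 23, 23 and 15 counts in Clover and 15, 11 and 13 in Z18fl, which do not overlap per aligned fragment (-1.48 ± 0.36, edgeR adjusted p = 0.0024).

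In Z18trunc against Clover, 39 of 689 MIR loci were called higher and 155 lower, 5.66% and 22.5%, against 22.5% higher and 13.4% lower over all 13204 loci tested. The MIR median was -0.45, and -0.077 with aligned fragments, when 83 loci were higher and 50 lower. The median over all loci was then 0.395, with 4280 higher and 494 lower of 13373. Under TMM, 23 of 558 MIR loci were higher without Z18trunc replicate 3. Without Z18trunc replicates 1, 2 or 3 in turn, 87 of 558, 77 of 557 and 102 of 558 were lower. Of 269 loci in 3′UTRs 3 were higher and 95 lower (median -0.63), and 6 and 32 of 266 with aligned fragments. Exonic MIR loci as a whole were 4.59% higher and 28.1% lower, near the 4.08% and 26.6% over all repeat loci in exons. Non-coding exons had 11 higher and 8 lower of 76 (median 0.015), and introns 17 higher and 32 lower of 208 (median -0.23). With aligned fragments the balance in introns turned to 41 higher and 10 lower of 212, with a median of 0.22. For intronic loci of all repeats the shares under TMM were 35.4% higher and 6.01% lower. With aligned fragments 2819 of those loci were higher and 90 lower of 6032, with a median of 0.96.

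The leading rise was the MIRb element in a non-coding exon of PLEKHG5 (ENSG00000171680.23), which encodes a guanine nucleotide exchange factor. It had 5, 12 and 11 counts in Clover and 64, 55 and 49 in Z18fl, then 37, 44 and 29 for Z18trunc and 25, 29 and 14 for Z18truncZnFmut. The log2 fold change was 1.14 ± 0.37 (SE) in Z18trunc (edgeR adjusted p = 0.023) and 1.74 ± 0.34 in Z18fl (edgeR adjusted p = 0.00042), both without overlap. In Z18truncZnFmut it was 0.65 ± 0.47 and was not called (edgeR adjusted p = 0.38). The call in Z18trunc was lost without Clover replicate 1 (0.80, edgeR adjusted p = 0.13), without Z18trunc replicate 2 (edgeR adjusted p = 0.067), in DESeq2 (adjusted p = 0.055) and in the fit of all 12 libraries (edgeR adjusted p = 0.052).

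Besides QSOX1, the leading fall was the MIRc element in the 3′UTR of PDZD8 (chr10:117281574-117281813, ENSG00000165650.12), a protein of membrane contact sites, with 41, 16 and 16 counts in Clover and 7, 20 and 17 in Z18trunc (-1.54 ± 0.44, edgeR adjusted p = 0.0089). Clover replicate 1 was far above the other Clover libraries and Z18trunc replicate 1 far below its group. Without the first it was -0.97 and without the second -1.10, and neither was called (edgeR adjusted p = 0.14 and 0.067). No other MIR locus met the rule for named loci in this comparison.

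In Z18truncZnFmut against Clover, 9 of 565 MIR loci were called higher and 70 lower, 1.59% and 12.4%, against 12.3% higher and 4.83% lower over all 10152 loci tested. Without replicate 3 of the mutant they numbered 9 and 42 of 575, and leaving out any 1 of the 6 libraries gave 3 to 9 higher and 40 to 48 lower. The median was -0.42, and -0.20 with aligned fragments. In 3′UTRs 1 of 249 loci was higher and 50 were lower (median -0.58), and in introns 2 of 155 were higher and 8 lower (median -0.26). With aligned fragments 2 of 251 loci in 3′UTRs were higher and 18 lower, and 8 of 180 in introns were higher and 4 lower. Under TMM, 0.914% of all repeat loci in exons were higher and 10.7% lower. For intronic loci of all repeats the shares were 21.3% and 1.76%, and with aligned fragments 1311 were higher and 22 lower of 4688. No rise met the rule for named loci. The named fall, the MIR element in the 3′UTR of GPAT4 (ENSG00000158669.11) on chromosome 8, an enzyme of glycerolipid synthesis, had 41, 28 and 30 counts in Clover and 39, 17 and 20 in Z18truncZnFmut (-1.04 ± 0.33 SE, edgeR adjusted p = 0.028). It lost its call under 8 of 13 alternatives, among them leaving out replicate 3 (-0.90, edgeR adjusted p = 0.11).

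Z18trunc was set against Z18fl to show any effect of the truncation. Of 1082 MIR loci, 15 were called higher and 60 lower in Z18trunc, 1.39% and 5.55%, against 2.62% and 3.13% over all 19413 loci tested. The median was -0.18, and -0.093 with aligned fragments, when all loci had 0.0083 and 0.091. Leaving out any 1 of the 6 libraries gave 3 to 9 higher and 14 to 48 lower, with 14 lower without Z18fl replicate 2. In 3′UTRs 10 of 311 loci were higher and 9 lower (median 0.093). Non-coding exons had 0 higher and 16 lower of 143 (median -0.41), and introns 2 higher and 22 lower of 439 (median -0.28). The shares over all repeats were 3.06% higher and 3.95% lower in exons and 1.96% and 2.93% in introns. DESeq2 called 0 higher and 5 lower of 143 MIR loci in non-coding exons and 0 and 7 of 439 in introns. Over all repeats it called 101 higher and 89 lower of 4483 loci in exons and 100 and 137 of 9827 in introns.

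The named rise was the MIR1_Amn element in the 3′UTR of SLC43A3 (chr11:57407143-57407309, ENSG00000134802.18), a nucleobase transporter, with 83, 111 and 83 counts in Z18trunc and 56, 57 and 50 in Z18fl (0.68 ± 0.20 SE, edgeR adjusted p = 0.048). The named falls were HGS, at -0.95 ± 0.28 (edgeR adjusted p = 0.046), and the MIR element in an intron of MYBBP1A (chr17:4550789-4551000, ENSG00000132382.15), a nucleolar protein. The latter had 7, 3 and 4 counts in Clover and 40, 27 and 31 in Z18fl, then 8, 15 and 20 for Z18trunc and 23, 7 and 17 for Z18truncZnFmut (-1.25 ± 0.34, edgeR adjusted p = 0.030). The groups did not overlap at these 3 loci. DESeq2 called none of the 3 (adjusted p = 0.053 to 0.074), and each lost its call when single libraries were left out.

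Set directly against Z18trunc, Z18truncZnFmut had few called MIR loci. On simulated data this comparison recovered 22% of the loci changed 2-fold, so few calls do not show that the constructs were alike. Of 815 MIR loci, 2 were higher and 1 lower in Z18truncZnFmut than in Z18trunc, 0.245% and 0.123%, against 0.368% and 0.351% over all 16833 loci tested. At an unadjusted p under 0.05 there were 42 higher and 30 lower. DESeq2 called 2 higher and 0 lower. The median was 0.023, and -0.13 with aligned fragments. No locus met the rule for named loci, and the SLC7A5 element above was 1 of the 2 higher ones. Without replicate 3 of the mutant 2 loci were higher, 1 of them shared with the calls above and both in introns, and 0 lower of 1117, so the SLC7A5 call was lost.

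**Figure D4:**
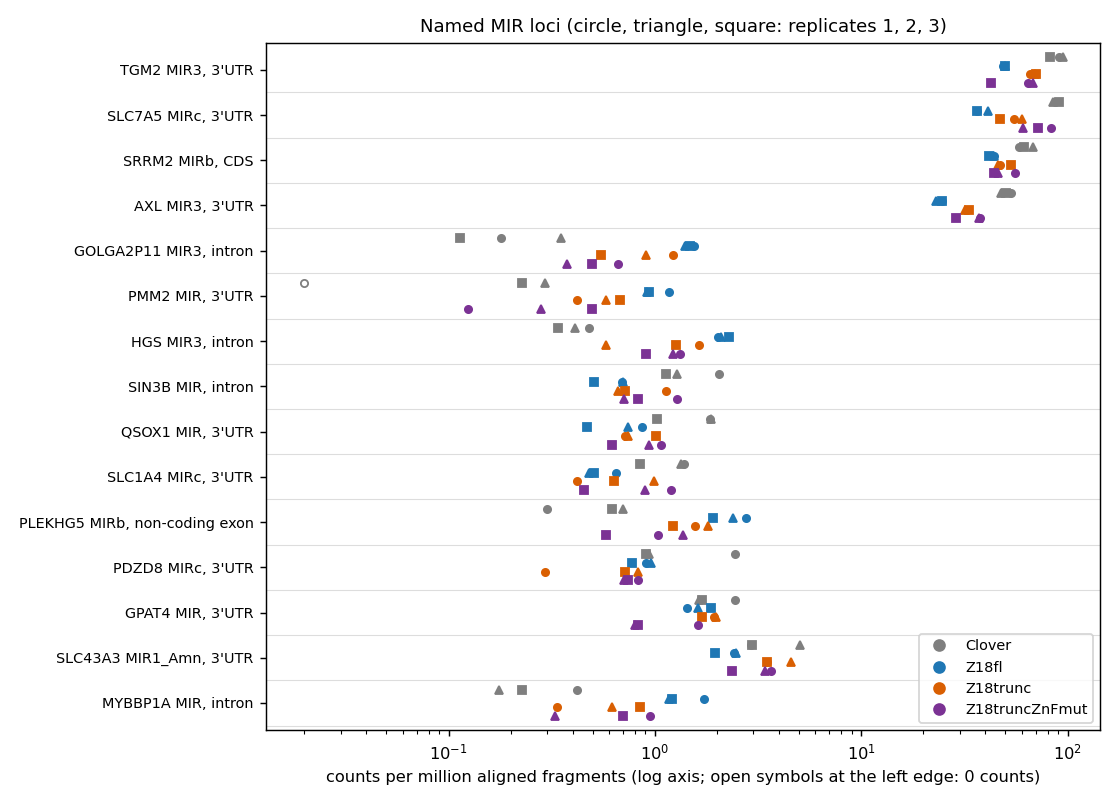
Levels in CPM (log x axis) of named MIR loci in each library, with the gene, subfamily and place of each on the y axis. In the 4 loci at the top all Clover symbols lie to the right of the Z18 symbols, and in those named as rises in Z18fl, which are GOLGA2P11, PMM2 and HGS, the Z18fl symbols lie to the right.

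Several called loci lay in exons or introns of the same gene and are not independent of each other. In Z18fl against Clover 31 genes held more than 1 called MIR locus, 74 loci in all. In 25 of these genes all called loci had the same direction, and in the others both directions occurred. More called MIR loci were lower (231) than higher (119), which alone makes shared directions common. The share for all repeats was not computed. SYNPO (ENSG00000171992.13), which encodes the actin-associated protein synaptopodin, held the most and is named for that after its values were seen. All 5 of its MIR3 elements tested lie in its 3′UTR, between positions 150650383 and 150657354 of chromosome 5, and all 5 fell in Z18fl, by 1.24 to 2.15 on the log2 scale (edgeR adjusted p from 4.2e-05 to 0.0078). With aligned fragments the 5 falls were from -1.79 to -0.88. In Z18trunc 4 of the 5 were called lower, and in Z18truncZnFmut 2. The 2 calls in Z18truncZnFmut were lost under 9 and 8 of 13 alternatives. The Z18trunc call at the element starting at 150651666 was lost under 8 of 13. The element that fell most in Z18fl (start 150651666) had 36, 57 and 37 counts in Clover, 23, 18 and 11 in Z18fl and 29, 43 and 55 in Z18trunc. It was higher in Z18trunc than in Z18fl, by 1.20 ± 0.33 (SE, edgeR adjusted p = 0.032), a call lost under 7 of 13 alternatives.

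Summed over each subfamily, low single loci count as well. In Z18fl against Clover edgeR called MIR3 (-0.46 ± 0.060 SE, adjusted p = 1.5e-05) and MIRc (-0.26 ± 0.059, adjusted p = 0.0018) lower and none of the 5 higher, where 20.1% of 915 subfamilies were called in each direction. With aligned fragments, which move the median of all subfamilies from -0.014 to 0.45, these became 0.015 and 0.20, and the MIR subfamily (0.54), MIRb (0.42), MIR1_Amn (0.34) and MIRc were called higher. The order of the subfamilies was the same on both scales, with the MIR subfamily highest and MIR3 lowest. In CPM the MIR subfamily had 701, 641 and 590 in Clover and 955, 925 and 922 in Z18fl, whereas MIR3 had 629, 601 and 563 in Clover and 609, 604 and 598 in Z18fl and overlapped.

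In Z18trunc against Clover MIR3 (-0.40 ± 0.096), MIRc (-0.33 ± 0.092) and MIR1_Amn (-0.29 ± 0.092) were called lower (edgeR adjusted p = 0.0040, 0.011 and 0.027), where 14.5% of 925 subfamilies were higher and 11.9% lower. With aligned fragments they were 0.090, 0.16 and 0.21 and were not called, and the MIR subfamily (0.43) and MIRb (0.33) were called higher. Without Clover replicate 2 or Clover replicate 3 only 1 of the 3 falls was called. With all 12 libraries in a single fit no MIR subfamily was called in either comparison.

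In Z18truncZnFmut against Clover edgeR called no MIR subfamily, and 1.30% of 921 subfamilies were higher and 0 lower. No MIR subfamily had an unadjusted p under 0.05 in that comparison. The log2 fold changes ran from -0.60 ± 0.29 for MIR3 to -0.21 ± 0.21 for the MIR subfamily, and with aligned fragments from 0.18 to 0.72. Without replicate 3 of the mutant MIR3 (-0.32, edgeR adjusted p = 0.0026) and MIRc (-0.24, edgeR adjusted p = 0.037) were called lower. Neither comparison between Z18 constructs had a called MIR subfamily, where 1.48% of 948 subfamilies were higher and 2.43% lower for Z18trunc against Z18fl and 0 of 957 were called for Z18truncZnFmut against Z18trunc.

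**Figure D5:**
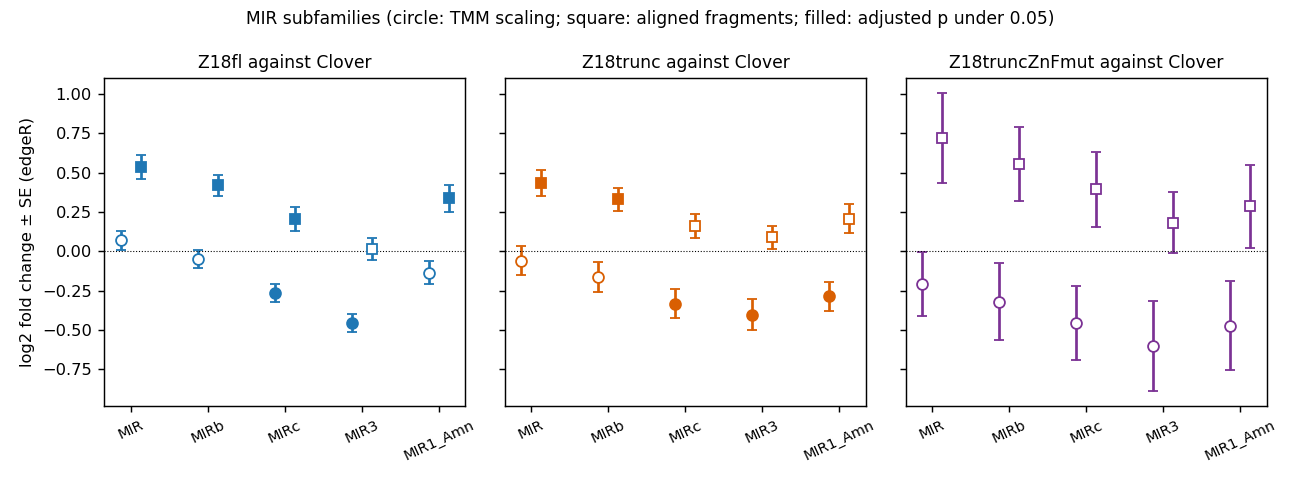
Log2 fold change against Clover with its SE (y axis) for the 5 MIR subfamilies (x axis) under TMM scaling (circles) and with library sizes from aligned fragments (squares). Filled symbols were called. MIR3 is lowest under both scalings in the 3 panels, and the scaling moves all subfamilies up, in Z18fl from -0.46 to 0.015 for MIR3.

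The subfamilies also differed in the places of their tested loci. In Z18fl against Clover 82 of 126 MIR3 loci and 86 of 129 MIRc loci tested were exonic, against 74 of 155 of the MIR subfamily and 136 of 258 of MIRb. The locus medians followed, with -0.65 for MIR3 and -0.56 for MIRc, against -0.25 for the MIR subfamily and -0.27 for MIRb. Whether the place of the elements accounts for the order of the subfamilies was not tested.

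Sequence features that the choice of members did not use moved little with the constructs. The T content of MIR elements weighted by counts, which bears on 4sU labelling since 4sU takes the place of U, was 27.5% ± 0.058 (SD, n = 3) in Clover, and 27.8% ± 0.061, 27.9% ± 0.19 and 28.2% ± 0.90 in Z18fl, Z18trunc and Z18truncZnFmut. Z18fl and Z18trunc lay above Clover without overlap (exact permutation p = 0.1 for each), and without replicate 3 the difference of Z18truncZnFmut from Clover went from 0.651 to 0.139 percentage points. The divergence weighted by counts was 28.6% in Clover, Z18fl and Z18trunc and 28.7% ± 0.18 in Z18truncZnFmut, and overlapped Clover in all 3 (exact permutation p = 0.3, 0.4 and 0.4).

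Among tested loci the fold change in Z18fl against Clover went down with T content. In the tertile of the 688 loci with the lowest T content the median log2 fold change was -0.094, in the middle tertile -0.33 and in the highest -0.62. Exonic loci were 50.2%, 58.1% and 63.9% of these tertiles, so the place of the loci moved with T content, and its part was not tested. Spearman's rank correlation with T content was -0.17 over the 395 exonic loci and 0.033 over the 213 intronic loci, across loci that share libraries and are not replicates. The rank correlation with divergence was 0.065, and with length 0.054. Loci with the run CTCAGTTT had a median of -0.60 (100 loci, 60.0% exonic) and those without it -0.35 (588 loci, 57.0% exonic).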

How the data were processed

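Anti-V5 PAR-CLIP RNA from A375 cells, depleted of ribosomal RNA, was sequenced with a stranded kit in 12 libraries, grouped by the construct named in the labels. The authors trimmed reads (cutadapt 4.6 in the submitters' processing notes) and ran SQuIRE on hg38, 1 table per library. The SQuIRE and aligner settings are not given in the sources used here. The deposited expected counts (unique reads plus shares of multimapping reads) were rounded for tests, the deposited counts of unique reads served as an alternative, and the deposited score is the percent of reads with any alignment to an element that were assigned to it. The counts of aligned fragments deposited with each library served for CPM. Without molecular identifiers, PCR copies are counted as reads. An element was exonic if at least 50% of its length lay in GENCODE 44 exons on its strand, and otherwise intronic by its midpoint. Starts, counted from 0 in the files, are printed from 1.

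Loci and subfamilies of 6 repeat classes were tested with edgeR 4.0.16 (R 4.3.3) quasi-likelihood, TMM and filterByExpr (minimum count 10, total 15), on the 6 libraries of each of 5 comparisons. The 10 measures per library went through exact permutation tests, two-sided (scipy 1.17.1). Alternatives were DESeq2 1.42.0, library sizes from aligned fragments, no filter, either strand, unique reads, all 12 libraries, a replicate block, exons by any base, an unadjusted threshold and leaving out each library. The fits were tested on simulated data. Replicates differed by more than sampling noise in every group.

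Named loci were the 5 with the highest mean CPM and, among called loci without overlap whose higher group averaged 20 counts and a score of 90 or more, the leading 4 rises and 3 falls against Clover and 2 of each between constructs. Some loci that this rule picked are not reported here. Members and lists were chosen with earlier results of these data known.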

Additional observations from a re-analysis of the deposited data

How the results depend on the processing

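Each choice of the processing was changed alone, and the causes of the changes were not tested except where fewer loci or samples are named. Counts of MIR loci called are given as higher and lower, and the counts not given stayed within 1.5 times. The number of loci tested also moved with some settings, and where it did the counts do not compare as shares. The counts given above were 119 and 231 for Z18fl against Clover, 39 and 155 for Z18trunc, 9 and 70 for Z18truncZnFmut, 15 and 60 for Z18trunc against Z18fl and 2 and 1 for Z18truncZnFmut against Z18trunc.

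DESeq2 called 19 and 83 in Z18trunc against Clover, 5 and 44 in Z18truncZnFmut against Clover, 9 and 19 in Z18trunc against Z18fl and 0 lower in Z18truncZnFmut against Z18trunc. These were of 689, 565, 1082 and 815 MIR loci, as in the main fits. Over all repeats, in the same order, DESeq2 called 2574 and 1011 of 13204 loci, 1067 and 320 of 10152, 304 and 291 of 19413 and 87 and 81 of 16833. Without a filter on low counts, many more loci with few counts were fitted, with 65852, 68367 and 102880 MIR loci in the 3 comparisons with Clover. The calls there were 223 and 69, 63 and 8, and 3 and 2. Without the filter they were 0 and 20 in Z18trunc against Z18fl and 3 lower in Z18truncZnFmut against Z18trunc. The medians of MIR loci against Clover then turned to 1.67, 1.71 and 1.71. A fit of all 12 libraries tested 1365 MIR loci. It called 22 and 138 in Z18truncZnFmut against Clover and 5 and 10 in Z18trunc against Z18fl. It called 0 MIR subfamilies lower in Z18fl and 0 in Z18trunc, and turned the median of Z18truncZnFmut against Z18trunc to -0.017. At an unadjusted p under 0.05 there were 21 and 140 in Z18truncZnFmut against Clover, 58 and 200 in Z18trunc against Z18fl, with 2 MIR subfamilies lower, and 42 and 30 in Z18truncZnFmut against Z18trunc.

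Library sizes from aligned fragments gave 227 and 137 in Z18fl against Clover, 83 and 50 in Z18trunc, 19 and 28 in Z18truncZnFmut, 34 lower in Z18trunc against Z18fl and 3 lower in Z18truncZnFmut against Z18trunc. The median of MIR loci turned to 0.12 in Z18fl against Clover and to -0.13 in Z18truncZnFmut against Z18trunc. Called MIR subfamilies became 4 higher and 0 lower in Z18fl and 2 higher and 0 lower in Z18trunc. The log2 fold changes of MIR1_Amn, MIR3, MIRb and MIRc turned to 0.34, 0.015, 0.42 and 0.20 in Z18fl. Those of the MIR subfamily, MIR1_Amn, MIR3, MIRb and MIRc turned to 0.43, 0.21, 0.090, 0.33 and 0.16 in Z18trunc, to 0.72, 0.29, 0.18, 0.55 and 0.39 in Z18truncZnFmut, and to 0.28, 0.078, 0.092, 0.22 and 0.23 in Z18truncZnFmut against Z18trunc.

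With reads on either strand, 283 of 1453 loci were higher in Z18fl and 86 of 1346 in Z18trunc against Clover. On the element's strand 688 and 689 loci were tested. In Z18trunc against Z18fl 24 were higher, and in Z18truncZnFmut against Z18trunc 1 was higher and 2 lower. In Z18truncZnFmut the MIR share of element counts turned to -0.118 percentage points against Z18trunc, and against Clover the MIR share of SINE counts turned to -0.278 points and the log2 ratio to Alu to -0.035. The log2 ratio to L2 against Clover turned to -0.0086 in Z18fl and -0.13 in Z18trunc. In Z18trunc against Z18fl the divergence weighted by counts turned to 0.0132 percentage points and the MIR3 subfamily to -0.040, and the locus median of Z18truncZnFmut against Z18trunc turned to -0.0046. With uniquely mapping reads the divergence turned to 0.00660 points and 25 loci were higher in Z18trunc against Clover. Exons by any overlapping base changed no direction.

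Replicate numbers did not pair the samples, since deviations from the group means correlated between same-numbered libraries at -0.078 to 0.037. With the replicate number as a replicate block, 8 loci were higher in Z18trunc against Z18fl and 0 in Z18truncZnFmut against Z18trunc. The block also ended the calls of MIR1_Amn in Z18trunc against Clover (-0.29, edgeR adjusted p = 0.062) and of HGS (-0.997, edgeR adjusted p = 0.053) and SLC43A3 (0.67, edgeR adjusted p = 0.081) in Z18trunc against Z18fl, of TGM2 (edgeR adjusted p = 0.10), SLC7A5 (edgeR adjusted p = 0.076) and the SYNPO element (edgeR adjusted p = 0.054) in the same comparison, of HGS (edgeR adjusted p = 0.065) and QSOX1 (edgeR adjusted p = 0.053) in Z18truncZnFmut against Clover, and of SLC7A5 in Z18truncZnFmut against Z18trunc (edgeR adjusted p = 0.125). Over all MIR loci it kept 104 of 119 higher and 199 of 231 lower calls in Z18fl against Clover, 26 of 39 and 117 of 155 in Z18trunc, 6 of 9 and 59 of 70 in Z18truncZnFmut, and 7 of 15 and 41 of 60 in Z18trunc against Z18fl.

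Leaving out 1 library at a time moved the calls in Z18fl against Clover to 88 to 211 higher and 147 to 273 lower. Without Clover replicate 1 and without Clover replicate 2, 211 of 1287 and 204 of 1251 loci tested were higher. Without Z18fl replicate 3, 147 of 642 were lower. In Z18trunc against Clover the calls were 23 to 54 higher (23 without Z18trunc replicate 3) and 77 to 151 lower (77, 87 and 102 without Z18trunc replicates 2, 1 and 3), and 1 to 3 MIR subfamilies were lower. In Z18truncZnFmut against Clover they were 3 to 9 higher (3 without Clover replicate 3, 4 without Z18truncZnFmut replicate 2) and 40 to 48 lower (40 to 45 without any 1 library but Clover replicate 3), and 0 to 2 MIR subfamilies were lower (2 without Z18truncZnFmut replicate 3). In Z18trunc against Z18fl they were 3 to 9 higher (3 without Z18fl replicate 1) and 14 to 48 lower (14 and 15 without Z18fl replicates 2 and 1, 19 and 20 without Z18trunc replicates 2 and 1), and in Z18truncZnFmut against Z18trunc 0 to 3 higher and 0 to 1 lower.

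The differences of Z18truncZnFmut from Z18trunc ran from -272.5 to 995 CPM, -0.0484 to 0.291 points of the share of element counts, -0.970 to 1.376 points of SINE counts, -0.12 to 0.15 in the log2 ratio to Alu, -0.33 to 0.011 in that to L2, -7.42 to 2.10 points of the exon share and -0.212 to 0.638 points of T content. Those from Clover ran from -1.257 to 1.089 points of SINE counts, -0.16 to 0.11 in the log2 ratio to Alu, -0.296 to 0.050 in that to L2 and -0.00103 to 0.168 points of divergence. In all of these measures but the share of element counts, the change of sign came without Z18truncZnFmut replicate 3. In Z18trunc against Z18fl divergence ran from -0.0378 to 0.0129 points, T content from -0.00532 to 0.187 points and the MIR3 subfamily from -0.017 to 0.059. In Z18truncZnFmut against Z18trunc the locus median ran from -0.045 to 0.067, MIR1_Amn from -0.30 to 0.12, MIR3 from -0.29 to 0.075, MIRb from -0.16 to 0.026 and MIRc from -0.16 to 0.081.

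Depth limits the loci that can be tested. On simulated data with 200 changed loci, edgeR recovered 35% of those changed 2-fold and 73% of those changed 4-fold in Z18fl against Clover, and 17% and 69% in Z18trunc and 15% and 74% in Z18truncZnFmut. Of the simulated calls, 10% were false in Z18fl against Clover, above the nominal rate, and 3.37% and 3.26% in the other 2 comparisons with Clover.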
